A study of Mus musculus with 12 samples.

Results

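Natural killer (NK) cells were taken from mouse SCC35 tumours profiled by single-cell RNA sequencing, and 659 of the 116375 cells assigned to a sample (0.566%) were NK cells. A cell was called NK when it held at least 1 UMI (unique molecular identifier, 1 counted RNA molecule) of Ncr1 or Klrb1c and at least 1 of Nkg7. It also had to hold no UMI of Cd3e, Cd3d or Cd3g, the T cell receptor's CD3 chains, and none of C1qa, C1qb or C1qc, complement genes of macrophages. These 9 genes chose the cells, so their levels are description. They were not taken out before the fits, and no test of them is given as a result.

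The study compared tumours of SCC35 lines labelled Mif KO with tumours of lines labelled Mif KO control. Mif encodes macrophage migration inhibitory factor, a cytokine that tumour cells secrete. The control group was lines 15 and 18, the knockout group was lines 19 and 24, and a deposited sheet gave tumours of each line at days 6, 10 and 16. Live cells of dissociated tumours were tagged by sample with hashtag antibodies and pooled into 4 single-line libraries and 2 mixed libraries holding lines of both groups. There were 18 control and 17 Mif KO tumours, 7 day 0 samples of the lines, and 3 tumours marked WT in the sheet, which are in no group here and are given as single values. The strain, age and sex of the host mice, the day 0 procedure and whether a line is 1 clone are not stated in the labels. Line is nested in group, so group and line cannot be told apart, and p-values over tumours cover the spread between tumours of these 4 lines.

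NK cells are innate lymphocytes that kill stressed or transformed cells without a rearranged antigen receptor. They read target cells through activating receptors such as NKp46, encoded by Ncr1, and NKG2D, encoded by Klrk1, and through inhibitory receptors of the Ly49 (Klra) and NKG2 (Klrc) families that bind MHC class I molecules. Killing is carried out by perforin, which opens the target's membrane, and by granzymes, serine proteases delivered with it. NK cells also secrete chemokines, among them XCL1 and CCL5, that draw dendritic cells and T cells into a tumour.

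The cells carried NK genes beyond those that chose them. Of 22 NK identity genes outside the gate, 20 were at least 2-fold higher per UMI counted in the NK cells than in all other cells, which is a description of the gate and no test. Klra8 (Ly49H) stood at 77.5 CPM (the UMIs of a gene scaled to a fixed library total), Klre1 at 127, Klrd1 (CD94) at 300 and Eomes, a transcription factor of conventional NK cells, at 62.5. Il2rb, the receptor chain for interleukins 2 and 15, stood at 497 CPM, Gzma at 2078 and the signalling adaptor Tyrobp at 1144. T cell genes outside the gate were mixed. Cd8b1 stood at 0 CPM, Cd8a and Cd4 at 0.61 each, Cd5 at 0.31 and Trac at 6.43, whereas the T cell receptor beta constant genes Trbc1 and Trbc2 stood at 69.2 and 45.6 CPM, against 77.1 and 241 in CD8 T cells and 2.81 and 7.89 in all other cells. Trbc1 was found in 24.1% of NK cells, Trbc2 in 16.1%, the costimulatory receptor Cd28 in 10.8% at 25.4 CPM and the adaptor Lat in 6.98% at 15.0 CPM. Lyz2, a macrophage gene, stood at 15.3 CPM against 318 in other cells. Of 12 macrophage and monocyte markers 1 was at least 2-fold higher in NK cells, Ly6c2 at 151 against 63.4 CPM. Of 7 B cell and plasma cell markers 6 were at 0, all but Ighm, at 24.2 CPM in 11.2% of NK cells against 4.71 CPM in other cells. Of 6 neutrophil markers 5 were at 0. Of 6 mast cell and basophil markers 3 were at least 2-fold higher, Fcer1a, Cpa3 and Mcpt4. Each of them was found in 0.152% of NK cells, with UMIs in line 18 alone. Sparc, a gene of the tumour lines and stroma, stood at 1011 CPM against 1858. Among 14 genes of type 1 innate lymphoid and immature cells, the share of NK cells with a UMI ran from 0.455% for Cd200r1 to 25.9% for Tmem176b. Tmem176b stood lower in NK cells than in other cells, at 145 against 269 CPM. Itga1 was found in 7.59% and Cxcr6 in 3.95%, beside 23.4% for Eomes and 4.10% for Itga2, genes of conventional NK cells. By group, at unequal depth, Itga1 was found in 15.3% of control and 4.85% of Mif KO NK cells. In the same order, Kit was found in 13.6% and 8.37%, Tcf7 in 19.3% and 13.7% and Cd27 in 15.3% and 14.3%. Cxcr6 went the other way, at 2.84% and 4.41%. Eomes was found in 30.7% and 20.3%. The gate used none of these 14 genes. Whether the share of type 1 innate lymphoid cells differed between the groups was not tested.

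The gate rests on few molecules per cell. Of the members, 378 (57.4%) held exactly 1 UMI of Ncr1 and Klrb1c together, and 281 held more. The members with exactly 1 UMI had Klrd1 at 262 CPM and Gzma at 1966, and those with more had 340 and 2198. Just outside the gate, 1436 cells that lacked only Ncr1 and Klrb1c had Klrd1 at 78.2 CPM and Gzma at 651, and 106 cells that lacked only Nkg7 had 64.8 and 246. A further 42 cells were left out by a single CD3 UMI and 74 by a single C1q UMI, with Klrd1 at 220 and 438 CPM. Ncr1 was seen in 48.6% of members, Klrb1c in 75.7% and both in 24.3%.

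From 176381 barcodes in 6 libraries, 163866 met the cell filters, and 7201 barcodes of assigned cells occurred in more than 1 library, 94 of them in NK cells. NK cells had a median of 2735 UMIs (621 to 33123), against 2194 in CD8 T cells and 5278 in all assigned cells, and the median was 3992 in control and 2233 in Mif KO tumours. At least 3 UMIs of the line genes Sparc, Col1a1, Col3a1 and Krt18 were present in 157 NK cells (23.8%), from 20.7% in line 24 to 26.7% in line 18. In cells without Ptprc, the leukocyte marker CD45, Mif stood at 1624 to 2980 CPM in the 21 control samples and at 39.5 to 1182 in the 21 Mif KO samples, which do not overlap. No NK cell was found among 5769 day 0 cells, which allows a share of up to 0.0520% (3 counts of the total, for counting error alone), and 46 of those cells (0.797%) held a UMI of Nkg7.

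NK cells made up a larger share of Mif KO tumours than of control tumours. The share of assigned cells ran from 0.0717% to 2.28% in the Mif KO tumours (median 0.840%) and from 0.0627% to 1.76% in the control tumours (median 0.350%). The ranges overlapped. The means were 0.882% ± 0.595 (SD, n = 17) and 0.433% ± 0.405 (SD, n = 18), a difference of 0.448 percentage points (two-sided permutation test within day, p = 0.0108). Among cells with a Ptprc UMI, NK cells were 3.12% ± 2.03 of Mif KO and 1.84% ± 1.70 of control leukocytes (difference 1.27 points, permutation p = 0.0459). That difference did not pass the threshold without line 19 (0.548 points, p = 0.431), without line 18 (0.795, p = 0.295), within the mixed libraries (0.471, p = 0.546), with at least 2 UMIs of Ncr1 and Klrb1c (0.0655, p = 0.855), with no T cell UMI (p = 0.0686), with stricter cell filters (p = 0.0665), after thinning (p = 0.0654) or within the single-line libraries (p = 0.0582), all by the permutation test. The line means were 0.585% for line 15, 0.282% for line 18, 0.777% for line 19 and 0.999% for line 24, so both Mif KO lines lay above both control lines. With line as the unit the exact permutation p was 0.333, the smallest that 4 lines allow. The difference of assigned cells shrank to 0.0470 points (permutation p = 0.617) when at least 2 UMIs of Ncr1 and Klrb1c were required, to 0.182 (p = 0.0581) with cells thinned to 1000 UMIs before gating, to 0.253 (p = 0.306) within the mixed libraries, to 0.297 (p = 0.173) without line 18 and to 0.344 (p = 0.110) without line 24.

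**Figure D1:**
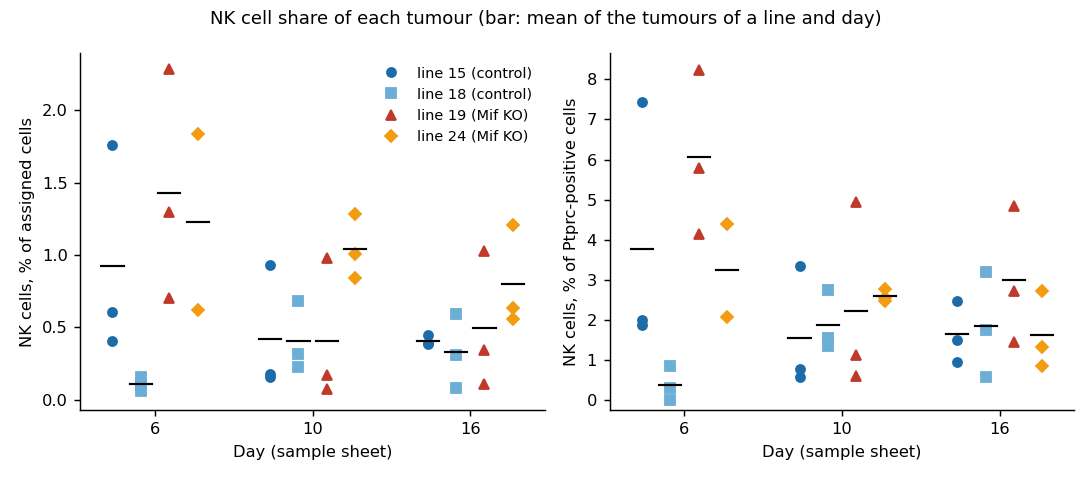
NK cells as a percentage of assigned cells and of Ptprc-positive cells, by the day in the sample sheet; each point is a tumour, with colour and shape for the line, and each bar is the mean of the tumours of a line and day. The highest point among control tumours is line 15, day 6, at 1.76% of assigned cells, and the highest Mif KO point is line 19, day 6, at 2.28%.

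The mean share was highest on day 6 in lines 15, 19 and 24, at 0.924%, 1.43% and 1.23%, and lowest on that day in line 18. Line 24 had 2 tumours of day 6, at 1.84% (12 NK cells of 653) and 0.622%. With its tumours pooled, the share was 0.881% on day 6 and 0.997% on day 10. The line 15 tumours of day 6 stood at 1.76%, 0.606% and 0.404%. The 3 tumours of line 19 of day 6 stood at 2.28%, 1.30% and 0.704%, and its later tumours ran from 0.0717% to 1.03%. Line 18 had values on that day of 0.0627%, 0.103% and 0.158%, which rest on 1, 3 and 3 NK cells. Over all lines the share changed by -0.386 points from day 6 to day 16 (exact permutation test within line, p = 0.101), and by -1.34 points among Ptprc-positive cells (exact permutation p = 0.0963), neither past the threshold of 0.05. Without line 18 both passed, at -0.621 points (exact permutation p = 0.0405) and -2.41 points (exact permutation p = 0.00975). The change from day 6 to day 16 differed between groups by -0.553 points of assigned cells (permutation p = 0.261).

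CD8 T cells (at least 1 CD3 UMI and 1 of Cd8a or Cd8b1, none of Cd4 or C1q, 1989 cells) were the reference for a ratio. For each 100 CD8 T cells, the Mif KO tumours held 94.2 NK cells on day 6, 33.6 on day 10 and 14.5 on day 16, pooled over tumours. Control tumours held 85.2, 42.9 and 70.9 on the same days. The lines of a group differed widely. On day 6 the ratio was 114 in line 19, 47.4 in line 24 and 22.6 in line 18, while line 15 held 45 NK and 30 CD8 T cells. On day 16 it was 37.9 in line 19 and 11.5 in line 24, the latter from 93 NK and 806 CD8 T cells, and 115 in line 15 and 55.8 in line 18. These ratios carry no test, since line 24 gave 1175 of the 1989 CD8 T cells.

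Inside the NK cells, the clearest difference between the groups was in a block of neighbouring granzyme genes. Gzmc, Gzmd, Gzme, Gzmf and Gzmg were all lower in NK cells of Mif KO tumours, Prf1 was lower as well, and the chemokine gene Ccl5 was higher. UMI counts of the NK cells were summed per tumour for the 6 control and 12 Mif KO tumours with at least 10 NK cells. They were tested with edgeR's quasi-likelihood test with day as a term, a fit that takes the group difference to be the same on each day. Of 2570 genes tested, 24 (0.934%) passed an adjusted p of 0.05, with 13 lower (0.506%) and 11 higher (0.428%) in Mif KO tumours. Of the 6 control tumours 1 was from day 6, against 5 of the 12 Mif KO tumours. That control tumour, line 15, day 6, letter B, had Gzmc at 2555 scaled CPM, against 683.5 to 2374 in the Mif KO tumours of day 6. Its Gzmd, Gzme, Gzmf and Gzmg levels lay within the Mif KO range, so the log2 changes do not describe day 6 by itself. With library as a term 5 genes passed, the 5 granzyme genes of the block, and no gene was called higher. Both that fit and the mixed libraries alone compare the groups through 2 control tumours, both of line 18 and neither of day 6. Line 15 is thus not set against Mif KO tumours in either. In the fit with a library term, its tumours enter through the day terms and the estimate of spread. Within the mixed libraries alone 7 genes passed, 6 of them lower, without line 18 there were 5, and with at least 2 UMIs of Ncr1 and Klrb1c per cell there were 0 by edgeR (103 at an unadjusted p under 0.05).

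Gzmc was the most abundant of the 5. Its level, in CPM of libraries scaled by edgeR, ran from 1965 to 16490 in the control tumours (median 8280.5) and from 257 to 2374 in the Mif KO tumours (median 796). All control tumours but line 15, day 16, letter A, at 1965, lay above every Mif KO tumour. Gzmc fell by 3.07 on the log2 scale (SE 0.47, edgeR adjusted p = 0.00058), from a mean of 8421 to 1091. Without line 18 the adjusted p was 0.0746, without line 24 it was 0.206 and with at least 2 UMIs of Ncr1 and Klrb1c per cell it was 0.184, with the direction kept in each.

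The 4 others followed the same order at lower levels. Gzmd ran from 33.1 to 2764 scaled CPM in the control tumours (median 1483.5) and from 0 to 186 in the Mif KO tumours (median 5.02), and fell by 5.12 (SE 0.66, edgeR adjusted p = 6.03e-05). Gzme ran from 16.6 to 1431 and from 0 to 53.1, and fell by 4.42 (SE 0.57, edgeR adjusted p = 6.03e-05). For both genes, 5 of the 6 control tumours lay above all Mif KO tumours, and the exception was line 15, day 6, letter B. Gzmf ran from 0 to 5694 in the control tumours and from 0 to 45.7 in the Mif KO tumours, with 8 of the 12 at 0, and fell by 6.05 (SE 0.84, edgeR adjusted p = 0.000162). The groups overlapped for this gene, since line 15, day 6, letter B and line 18, day 16, letter A were also at 0. Gzmg gave 234 UMIs in the control tumours and 5 in the Mif KO tumours, where 10 of 12 were at 0, and fell by 6.06 (SE 0.64, edgeR adjusted p = 4.95e-06). The sizes of these changes depended on the setting. Over the alternative settings the log2 change ran from -7.72 to -3.42 for Gzmd, from -7.70 to -2.92 for Gzme, from -9.97 to -4.14 for Gzmf and from -8.83 to -4.48 for Gzmg. Without line 24 the edgeR adjusted p was 0.0830 for Gzmd and Gzme and 0.173 for Gzmf. In CD8 T cells, Gzmc stood at 15.0, 16.3, 15.7 and 44.2 CPM in lines 15, 18, 19 and 24, against 597 CPM or more in the NK cells of each line.

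**Figure D2:**
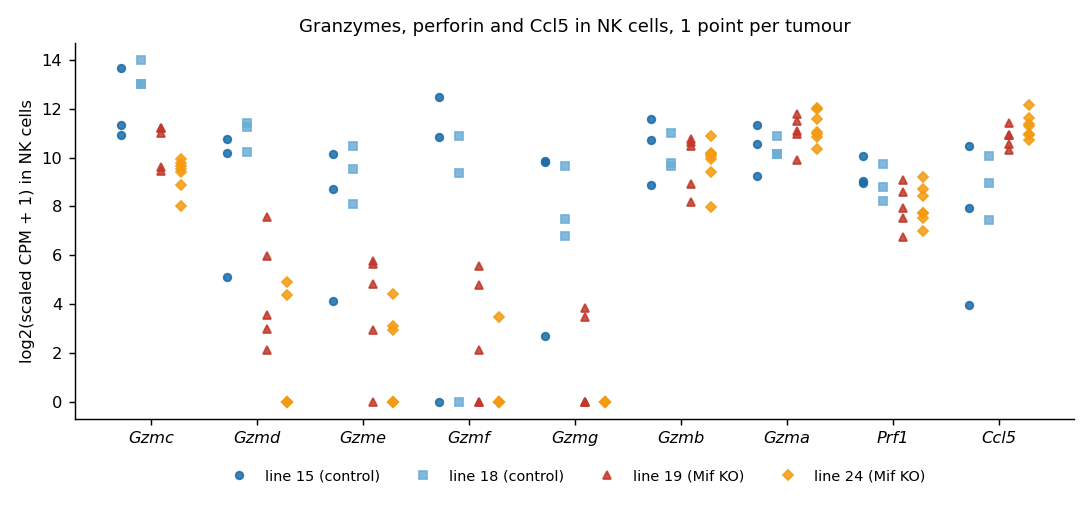
Levels of the granzyme genes, Prf1 and Ccl5 in NK cells as log2(scaled CPM + 1), with 1 point for each of the 18 tumours with at least 10 NK cells, control and Mif KO side by side, coloured by line. The control points of Gzmc reach 16490 scaled CPM and those of Mif KO tumours end at 2374, while for Ccl5 the Mif KO points start at 1271 and 5 of 6 control points lie below them.

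The 5 genes lie on chromosome 14 in one tract of 117 kb on the minus strand, chr14:56117626-56234656 of GRCm38, in the order Gzme, Gzmd, Gzmg, Gzmf and Gzmc, with Gzmb beyond Gzmc at chr14:56258838-56262260. They are close copies: their transcripts were 68.8% to 90.0% identical in pairs, with Gzmd and Gzme the closest, and the 250 bases before their starts were 70.2% to 94.8% identical. With Gzmb the values were 45.4% to 47.5% and 44.1% to 47.5%. Reads of such copies can be lost or assigned to the wrong copy, so the split of UMIs between Gzmd, Gzme, Gzmf and Gzmg is uncertain. The 150 bases before each RefSeq start (GRCm38.p6, minus strand, 5′ to 3′) are shown because the 5 genes moved together, with Gzmb, which did not pass the test, for contrast. Capitals mark TGTGGT, the core of Runx sites, and TGACNTCA, close to a cAMP response element, searched on both strands.
Gzmc: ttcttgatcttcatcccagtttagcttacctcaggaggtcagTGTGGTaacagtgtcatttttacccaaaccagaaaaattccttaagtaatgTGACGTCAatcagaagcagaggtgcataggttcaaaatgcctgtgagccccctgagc
Gzmf: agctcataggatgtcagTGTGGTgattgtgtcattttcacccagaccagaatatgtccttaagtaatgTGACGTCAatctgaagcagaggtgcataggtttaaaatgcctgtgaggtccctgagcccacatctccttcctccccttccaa
Gzmg: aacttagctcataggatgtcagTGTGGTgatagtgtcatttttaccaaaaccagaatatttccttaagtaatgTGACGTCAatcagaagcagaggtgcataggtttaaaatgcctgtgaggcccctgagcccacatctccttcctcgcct
Gzmd: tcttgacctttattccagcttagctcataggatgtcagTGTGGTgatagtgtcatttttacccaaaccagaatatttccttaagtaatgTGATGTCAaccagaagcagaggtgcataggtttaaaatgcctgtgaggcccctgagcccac
Gzme: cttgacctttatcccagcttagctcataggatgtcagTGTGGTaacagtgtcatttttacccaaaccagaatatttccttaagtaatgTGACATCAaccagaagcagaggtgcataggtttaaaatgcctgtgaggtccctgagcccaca
Gzmb: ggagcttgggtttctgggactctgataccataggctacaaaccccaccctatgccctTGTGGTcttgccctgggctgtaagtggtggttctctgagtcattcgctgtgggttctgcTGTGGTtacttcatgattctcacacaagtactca
Each of the 5 genes held 1 TGTGGT and 1 TGACNTCA in this window, and Gzmb held 2 and 0. Of 32851 promoters of this length, 8.4% held TGTGGT, 5.7% held TGACNTCA and 0.575% held both. The windows do not lie alike against the GENCODE genes. The Gzmb window began at 56262335, beyond its gene end at 56262260, and the bases between were not searched. The Gzmc window began at 56234658, next to its gene, and those of Gzmd and Gzmf began inside their genes. The 5 sequences are copies of one another and count as a single case. A match is a description of letters and no measure of binding.

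Of 19 cytotoxic granule and death ligand genes, 14 were tested, 6 were lower (the 5 above and Prf1) and none was higher. Their median log2 change was -1.11, beside 0.01 over all genes tested. Prf1, perforin itself, ran from 293 to 1078 scaled CPM in the control tumours (median 505) and from 106 to 585 in the Mif KO tumours (median 227). The groups overlapped, with 2 of 6 control tumours above all Mif KO tumours. Prf1 fell by 1.30 (SE 0.31, edgeR adjusted p = 0.0423), a call kept in 6 of 18 alternative settings and lost with library as a term (-1.33, edgeR adjusted p = 0.572). The change was -0.66 without NK cells over 6000 UMIs (edgeR adjusted p = 0.127) and -0.70 without NK cells carrying at least 3 UMIs of line genes (edgeR adjusted p = 0.153). Gzmb, the granzyme best known for triggering apoptosis, had means of 1501 ± 985 (SD, n = 6) and 1057 ± 547 (SD, n = 12) and a log2 change of -0.91 (SE 0.34, edgeR adjusted p = 0.201). Gzma had means of 1481 ± 697 and 2510 ± 1033 and a log2 change of 0.58 (SE 0.26, edgeR adjusted p = 0.333), so neither passed the test.

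Ccl5, which encodes the chemokine RANTES, was the 1 gene higher in Mif KO tumours among 9 cytokine and chemokine genes tested. It ran from 1271 to 4541 scaled CPM in the Mif KO tumours (median 1973) and from 14.4 to 1413 in the control tumours (median 373). Of the control tumours, 5 of 6 lay below every Mif KO tumour, and the exception at 1413 was line 15, day 6, letter B. Ccl5 rose by 2.06 on the log2 scale (SE 0.44, edgeR adjusted p = 0.0220). In the mixed libraries alone the change was 2.89 with an edgeR adjusted p of 0.00149, but with library as a term the change was 2.92 with an edgeR adjusted p of 0.271, and the adjusted p was 0.118 without line 18 and 0.127 without line 24. In CD8 T cells of the same design, Ccl5 had a log2 change of 0.79 (SE 0.38, edgeR adjusted p = 0.313, 10 control and 16 Mif KO tumours). The difference between the NK and CD8 changes was not tested. Cells without Ptprc held a Ccl5 UMI in 4.83% of control and 9.80% of Mif KO cells thinned to 1000 UMIs. The Mif KO lines differed in this share. Line 24 had 17.2%, whereas line 19, with 4.45%, lay below both control lines (5.08% for 15, 4.71% for 18). Whether those UMIs came from the cells themselves or from RNA outside them, and their part in the NK value, was not tested.

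No receptor or identity gene passed the test. None of 17 NK identity genes tested and none of 14 NK receptor genes was called, with medians of -0.31 and -0.24. Klrk1, the NKG2D receptor, singled out after its values were seen, was nearest, at 240 ± 68.0 scaled CPM in control and 138 ± 48.8 in Mif KO tumours (log2 change -0.88, SE 0.22, edgeR adjusted p = 0.0525). Eomes had means of 97.4 and 65.9 scaled CPM. All 16 cell cycle genes tested had a negative log2 change (median -0.51) and none passed the test. None of 7 interferon response genes passed it, with 6 positive. At an unadjusted p under 0.05 by edgeR there were 3 of 17 NK identity, 4 of 14 receptor, 5 of 16 cell cycle and 1 of 7 interferon genes. Over all genes tested there were 340 of 2570.

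Outside the fixed gene lists, the genes lower in Mif KO tumours included the actin genes Actb and Actg1 and the actin-binding Pfn1. Actb, beta actin, ran from 11960 to 15570 scaled CPM in the control tumours and from 6991 to 11010 in the Mif KO tumours, with no overlap, and fell by 0.55 (SE 0.09, edgeR adjusted p = 0.00233). Actg1, gamma actin, fell by 0.71 (edgeR adjusted p = 0.0104), and Pfn1, the actin-binding protein profilin, fell by 0.53 (edgeR adjusted p = 0.0358). Gnai2, a G protein subunit of chemokine receptor signalling, fell by 0.60 and Arhgdib by 0.52, both without overlap of the groups. Ifitm2, an interferon-induced membrane protein gene, fell by 1.26 (SE 0.25, edgeR adjusted p = 0.0116), from a mean of 1028 to 380 scaled CPM, and B4galnt1, an enzyme of ganglioside synthesis, fell by 0.88. Actb and Actg1 are near copies of each other, so their split is uncertain. None of these genes passed with library as a term, where the log2 changes were of similar size for Actb (-0.50), Ifitm2 (-1.15) and Gnai2 (-0.55), larger for B4galnt1 (-1.09) and smaller for Actg1 (-0.24), with edgeR adjusted p-values of 0.449 for Actb and Ifitm2, 0.826 for Actg1, 0.657 for Pfn1, 0.622 for Gnai2, 0.760 for Arhgdib and 0.469 for B4galnt1. Without line 24 none passed either, and without line 18 Actg1 alone did. The calls held in 11 of 18 alternative settings for Ifitm2, 10 for Actg1, 9 for Actb, 6 for Gnai2 and Arhgdib, 5 for Pfn1 and 4 for B4galnt1.

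Among the genes higher in Mif KO tumours, Dgat1, which completes triglyceride synthesis, was the 1 with no overlap of the groups. It ran from 134 to 351 scaled CPM against 22.3 to 121 in control tumours and rose by 1.73 (SE 0.29, edgeR adjusted p = 0.00208). Groups without overlap occurred in 6 of the 2570 genes (0.233%). Satb1, a chromatin organiser of lymphocytes, rose by 1.47 (SE 0.28, edgeR adjusted p = 0.00759), from a mean of 70.7 to 219 scaled CPM. In CD8 T cells its means were 79.5 and 137 scaled CPM (log2 change 0.82, SE 0.26, edgeR adjusted p = 0.109). Crem, a cAMP-responsive transcription factor, rose by 1.26 (SE 0.30, edgeR adjusted p = 0.0399), Bcl2l11, the pro-apoptotic BIM, by 1.21, Prss23, a serine protease, by 1.84 and Vegfa by 1.53, the 1 called gene of 12 glycolysis and hypoxia genes tested. Rnf213 rose by 1.25, Aplp2 by 0.92 and mt-Nd4 by 0.77. None of the genes in this paragraph passed with library as a term, where the log2 change was 1.61 for Dgat1, 1.78 for Satb1, 2.47 for Crem, 1.28 for Bcl2l11, 1.74 for Prss23 and 2.06 for Vegfa, and the edgeR adjusted p was 0.438 for Dgat1, 0.399 for Satb1, 0.104 for Crem, 0.305 for Bcl2l11, 0.572 for Prss23 and 0.316 for Vegfa. The calls held in 11 of 18 alternative settings for Dgat1, 9 of 18 for Bcl2l11, 8 of 18 for Satb1, 6 of 15 for Crem, 5 of 16 for Aplp2 and 5 of 12 for Rnf213. Ogn, a small proteoglycan of connective tissue, gave 3 UMIs in control and 202 in Mif KO tumours (edgeR adjusted p = 0.0300), 0 in line 15. Line 24 gave 80 of them in the tumour of day 10, letter B and 39 in that of day 16, letter B. Whether the Ogn UMIs came from NK cells or from RNA outside them was not tested. The summed stromal, endothelial and epithelial markers of NK cells ran from 414 to 1141 CPM in control and from 128 to 3368 in Mif KO tumours. Mif itself stood at 1033 to 2171 scaled CPM in NK cells of control tumours and 331 to 1960 in those of Mif KO tumours (log2 change -0.75, SE 0.26, edgeR adjusted p = 0.168), and 0.27 within the mixed libraries.

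Gzmc and Ccl5 were found together in 5.57% of all NK cells compared at equal depth. Every cell was thinned at random to 1000 UMIs so that depth was equal, which kept 610 of 659 NK cells (173 control, 409 Mif KO and 28 WT). A Gzmc UMI was found in 57.2% of control NK cells (95% exact binomial interval 49.5 to 64.7) and in 23.2% of Mif KO NK cells (19.2 to 27.6). A Ccl5 UMI was found in 23.1% (17.1 to 30.1) and 59.7% (54.7 to 64.4). These pooled shares do not hold on each day. On day 6, Gzmc was found in 26.0% (14.6 to 40.3) of control and 30.2% (23.4 to 37.7) of Mif KO NK cells. Ccl5 was then found in 44.0% (30.0 to 58.7) and 54.4% (46.6 to 62.1). On day 10 Gzmc was found in 70.6% and 17.6% and Ccl5 in 15.7% and 66.4%, and on day 16 Gzmc in 69.4% and 19.0% and Ccl5 in 13.9% and 60.3%. By line, Gzmc was found in 48.9%, 66.3%, 27.4% and 18.8% of the NK cells of lines 15, 18, 19 and 24, and Ccl5 in 25.6%, 20.5%, 57.1% and 62.4%. The intervals cover counting error of cells only and no difference was tested over cells.

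Within each group Ccl5 was found less often in Gzmc-positive than in Gzmc-negative cells, given here as a description with no test. Among control NK cells, 4.04% of the Gzmc-positive cells held Ccl5, against 48.6% of the Gzmc-negative cells. Among Mif KO NK cells the shares were 29.5% and 68.8%. Both genes were found in 2.31% of control and 6.85% of Mif KO NK cells. In cells without Ptprc, Gzmc was found in 0.209% and Ccl5 in 7.59%, and in CD8 T cells, Gzmc in 1.31% and Ccl5 in 59.4%. All thinned cells with a Gzmd, Gzme or Gzmf UMI in control tumours were in the Gzmc-positive set, which held Gzmd in 33.3% and Gzme in 31.3% of its cells against 0% in the 74 Gzmc-negative cells. Xcl1 was found in 58.6% of Gzmc-positive and 35.1% of Gzmc-negative control NK cells, and in 58.9% and 45.9% of those of Mif KO tumours, beside 0.403% of cells without Ptprc. Eomes was found in 6.06% and 17.6% of control and 6.32% and 7.64% of Mif KO NK cells, beside 0.0862%. Itga1 was found in 5.05% and 0% of control and 2.11% and 1.27% of Mif KO NK cells, beside 0.853%. The control shares rest on 99 Gzmc-positive and 74 Gzmc-negative cells. Other genes of type 1 innate lymphoid and immature cells were mixed in these control cells. Kit was found in 4.04% and 2.70%, Cd27 in 2.02% and 6.76%, Tcf7 in 4.04% and 8.11%, and Cxcr6 in 0% of both. For Thy1 the shares were 43.4% and 14.9% in control and 15.8% and 12.1% in Mif KO NK cells. These shares describe cells that share a tumour and were chosen by the same counts.

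**Figure D3:**
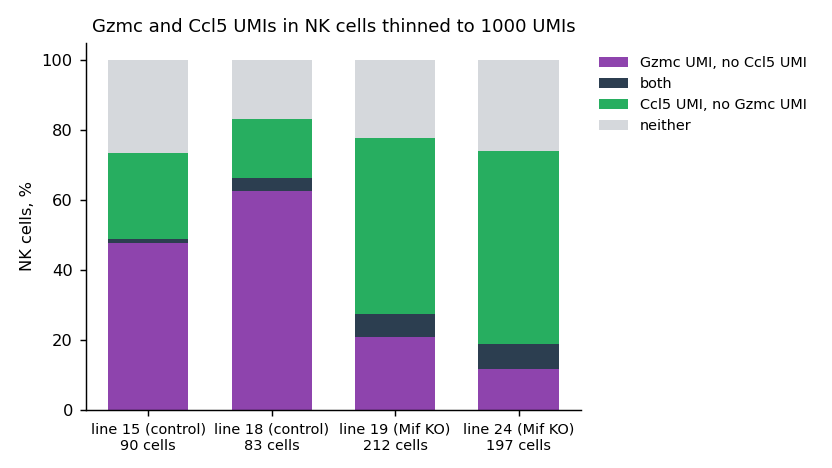
Stacked shares of NK cells with Gzmc alone, Ccl5 alone, both or neither among cells thinned to 1000 UMIs, 1 bar for each line, with the number of cells below it. Cells with Gzmc alone make up 47.8% and 62.7% of the NK cells of control lines 15 and 18 and 20.8% and 11.7% of those of Mif KO lines 19 and 24, and cells with both are 7.11% at most.

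The share of Gzmc-positive NK cells was lower on day 6 than later in the control tumours. This comparison was chosen after the values were seen, so it is a description and its p-values are no independent support. It uses the tumours with at least 3 thinned NK cells. The 4 control tumours of day 6 stood at 0% (from 3 NK cells of a line 18 tumour), 20.7%, 28.6% and 44.4%, and the 11 of days 10 and 16 ran from 46.2% to 100% (median 66.7%), with no overlap. The difference was 44.3 points. The 5 Mif KO tumours of day 6 ran from 9.09% to 40.0% and the 11 later ones from 0% to 33.3%, a change of -3.82 points. The changes differed by -48.1 points (permutation test, p = 0.00174), and with at least 5 NK cells per tumour by -38.5 points (permutation p = 0.0265), where the control change was 36.6. All 11 later control tumours lay above all 16 Mif KO tumours, and the day 6 tumours of the groups overlapped. Without line 15 the control change was 64.2 points with 1 tumour of day 6, and without line 18 it was 40.7.

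**Figure D4:**
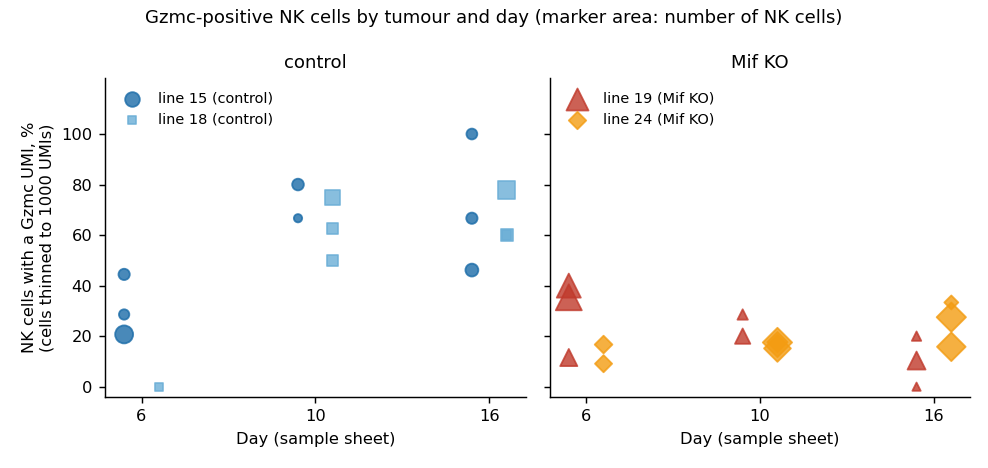
Percentage of NK cells with a Gzmc UMI among cells thinned to 1000 UMIs, by day, for control tumours on the left and Mif KO tumours on the right; each marker is a tumour, its area the number of NK cells and its colour the line. Control tumours of days 10 and 16 lie between 46.2% and 100%, and no Mif KO tumour exceeds 40.0%.

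Few genes passed the test between days in the joint fit of both groups. Between day 10 and day 6, 2 genes were higher (0.0778% of 2570) and none was lower by edgeR, with 245 genes at an unadjusted p under 0.05 and 16 called by DESeq2. The 2 genes called by edgeR were Fosb and Spp1. Fosb, an immediate early gene, was up by 1.54 (SE 0.28, edgeR adjusted p = 0.0331). Spp1, osteopontin, was up by 1.52 (SE 0.29, edgeR adjusted p = 0.0393), from a mean of 2966 to 8520 scaled CPM. Its level in other cells was not compared by day, and whether its UMIs came from NK cells was not tested. Between day 16 and day 6, 3 genes were higher (0.117%) and none was lower, with 246 genes at an unadjusted p under 0.05 and 14 called by DESeq2. They were Dst, a cytoskeletal linker, up by 1.46 (edgeR adjusted p = 0.00974), the nuclear RNA Malat1, up by 1.59 (edgeR adjusted p = 0.0312), and Fosb, up by 1.43 (edgeR adjusted p = 0.0393). All 12 immediate early and dissociation genes tested had a positive log2 change at both times, with medians of 0.74 and 0.81 beside 0.02 over all genes tested. The 2 comparisons share the day 6 tumours. Ifng, interferon gamma, had means of 218 scaled CPM on day 6, 47.4 on day 10 and 139 on day 16, and passed the test at neither time.

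Compared with CD8 T cells of the same tumours, NK cells differed in 215 of 3824 genes (5.62%), with 134 higher (3.5%) and 81 lower (2.12%). The fit used edgeR with the tumour as a block over 16 control and Mif KO tumours with at least 10 cells of each kind. The genes of both gates were left out of the counts of genes, though not out of the fit. Of 20 NK identity genes tested, 19 were higher and none was lower (median log2 difference 2.27, beside -0.03 over all genes tested), led by Klra8 at 6.15 (SE 0.36, edgeR adjusted p = 9.23e-14, higher in 16 of 16 tumours), Klrb1a at 4.77 and Klra9 at 4.29. Tyrobp was higher by 3.93 and Fcer1g, another signalling adaptor, by 3.50, each in 16 of 16 tumours. The Klra and Klrb1 genes are families of near copies, so levels of single members are uncertain. Pdcd1 (PD-1) and Ctla4, checkpoint receptors of activated T cells, were lower, at -4.68 and -2.29.

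Granule genes set the NK cells apart as well. Of 16 cytotoxic genes tested, 13 were higher and 1 was lower. Gzma rose from 153 scaled CPM in CD8 T cells to 1973 in NK cells, a log2 difference of 3.89 (SE 0.25, edgeR adjusted p = 7.67e-13, 16 of 16 tumours), and Gzmc from 36.0 to 2915, a difference of 5.76 (SE 0.48, edgeR adjusted p = 1.97e-10, 15 of 16 tumours). Prf1 was higher by 2.98 and Gzmb by 0.78, whereas Gzmk, a granzyme of memory-type T cells, was lower, at -4.88. Ccl5 stood at 1691 scaled CPM in NK cells and 2013 in CD8 T cells and did not pass the test (log2 difference -0.25, SE 0.20, edgeR adjusted p = 0.641). Among 11 cytokine and chemokine genes, Xcl1 was higher by 2.50, Ccl4 by 1.18 and Tgfb1 by 0.75, and Ltb, lymphotoxin beta, was lower, at -1.55. Ifng had means of 119 and 75.6 scaled CPM (edgeR adjusted p = 0.429).

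Of 14 transcription factors, 5 were higher and none was lower in NK cells. Irf8 led at 3.65 (SE 0.22, edgeR adjusted p = 2.58e-13), followed by Eomes at 2.05, Tbx21 at 1.51, Runx3 at 0.93 and Id2 at 0.83. Among homing genes, Ccr2, Itga4 and Itgal were higher, by 1.39, 1.19 and 0.66, while Cxcr6 and Ccr7 were lower, at -3.05 and -2.66. Of 13 cytokine receptor and signal genes, Il2rb, Il12rb2, Il18rap and Jak1 were higher and Il21r was lower. All 10 interferon response genes tested had a negative difference and 5 were lower by the test, led by Ifi27l2a at 159 against 1108 scaled CPM (log2 difference -2.85, SE 0.15, edgeR adjusted p = 7.34e-15, lower in 16 of 16 tumours). Ifit1 at -1.58, Zbp1 at -0.79 and Isg15 at -0.61 were also among them. Of 8 genes of innate lymphoid type 1 and immature cells, 3 were lower (Cxcr6, Gpr183 and Cd27) and none was higher. None of 17 cell cycle genes passed the test.

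Outside the lists, the largest differences higher in NK cells were Klrb1b at 4.93, which encodes an inhibitory receptor neighbouring the gate gene Klrb1c, and Car2, carbonic anhydrase 2, at 4.71 (SE 0.26, edgeR adjusted p = 4.16e-14, 16 of 16 tumours). Adamts14, a collagen-processing protease gene, was higher by 2.11, the adaptor Lat2 by 2.08 and the integrin chain Itgb3 by 2.02. The largest lower were the T cell receptor segments Trbv12-2 at -6.92, Trbv13-1 at -6.70 and Trbv3 at -6.05, the costimulatory receptor Tnfrsf4 at -3.70 and the T cell adaptor Grap2 at -2.80.

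**Figure D5:**
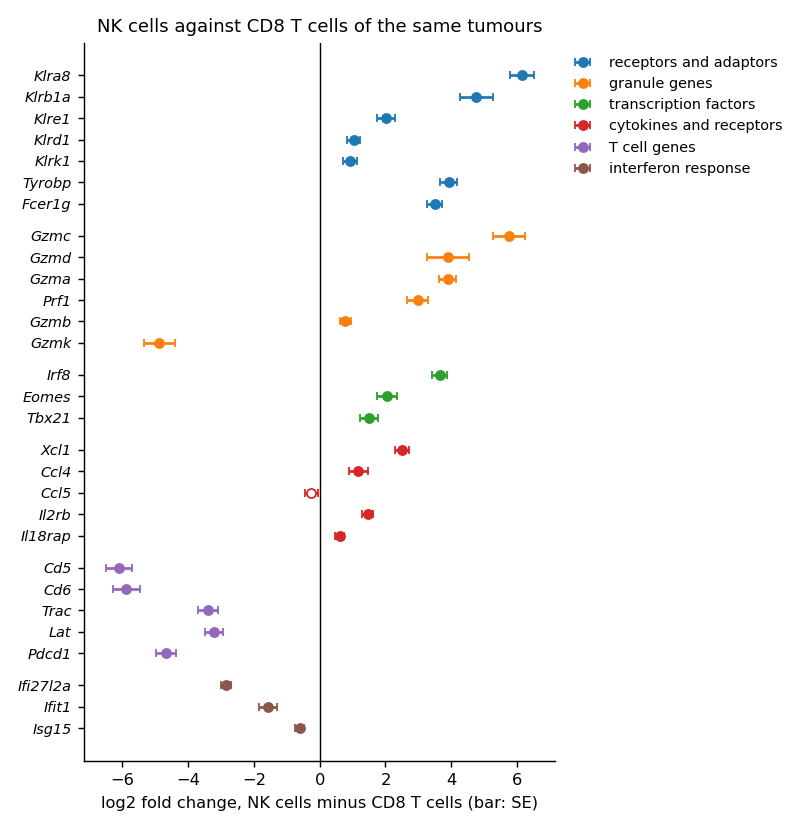
Log2 fold change of NK cells minus CD8 T cells of the same 16 tumours for genes grouped by role, with bars for the standard error; filled points passed an edgeR adjusted p of 0.05. Klra8 at 6.15 and Gzmc at 5.76 lie far to the right, Gzmk at -4.88 far to the left, and Ccl5 at -0.25 near 0.

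Several genes used to tell the maturity of NK cells were sparse. Unthinned, over control and Mif KO tumours, Cd27, of less mature NK cells, was found in 14.6% of NK cells, Itgam (CD11b), of mature ones, in 5.40%, and Klrg1, a late marker, in 8.73%. Thinned to 1000 UMIs the shares were 4.81%, 2.75% and 3.09%, beside 0.249%, 2.44% and 0.0729% in cells without Ptprc. The Itgam share is near that background and is not read as expression. After thinning, Itga1 was found in 2.89% of control and 1.47% of Mif KO NK cells, beside 0.853% in cells without Ptprc. Cxcr6 was found in 0% of control and 2.20% of Mif KO NK cells, and in 1.55% of both groups together, beside 0.889%. Mki67, a proliferation gene, was found in 7.51% of control and 7.09% of Mif KO NK cells after thinning, beside 8.75% in cells without Ptprc, at or above the NK shares. Irf8 was found in 53.2% of control and 56.2% of Mif KO NK cells after thinning, and Xcl1 in 48.6% and 48.9%.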

How the data were processed

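The members and gene lists were chosen with earlier results of these data known. For each of 6 libraries the authors deposited a matrix of UMI counts, with 32285 genes and 10 hashtags, and a sheet of hashtags. Per the submitters' processing notes the counts were made with Cell Ranger 6.0.0 on mm10; library totals ran from 151385933 to 239699029 counts. Cells needed at least 300 genes, at most 15% mitochondrial counts, and a top hashtag of at least 20 counts and at least 3 times the next. This left out hashtag doublets; no doublet caller was run, so doublets within a tumour remain. A tumour is 1 hashtag and took its group from its line. Reads were not realigned.

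Counts were summed per tumour (at least 10 NK cells) and tested with edgeR 4.0.16 in R 4.3.3 (filterByExpr, TMM, quasi-likelihood test, Benjamini-Hochberg over all genes tested, threshold 0.05), checked on simulated data. Shares were tested by permutation (100000 resamples, or exact) over tumours with at least 100 assigned cells, or at least 50 with a Ptprc UMI. Named genes are called members of the lists, fixed marker genes and the 5 largest changes each way outside the lists. Those changes were taken among genes with a mean log2 CPM of at least 5. In the group comparison, both Mif KO line means also lay on one side of both control line means. Pfn1, Arhgdib, Bcl2l11, Rnf213, Aplp2 and mt-Nd4, called outside the lists, and Thy1 are named beyond this rule. Exact binomial intervals are at 95% and cover counting error only. Nothing says that tumours came from separate mice. Alternatives were DESeq2 1.42.0, RLE factors, no count filter, stricter gates and cell filters, thinning, library subsets, a library term, 1 sum per line and leaving out each line. Positions come from GENCODE M21 and upstream sequences from RefSeq. Some single genes are not reported here.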

Additional observations from a re-analysis of the deposited data

Results flagged for a closer look

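Of 51 groups of 4 to 10 samples examined, 8 held a sample far from the others by Dixon's test at 95%, a test that chance passes in about 1 of 20 groups. The control tumour of line 15, day 6, letter B had the highest NK share among control tumours of its day and among tumours of its line. Its share of assigned cells was 1.76%, with the next control tumour of day 6 at 0.606% and the next tumour of line 15 at 0.928%. Its share of Ptprc-positive cells was 7.45%, with the next values at 2.0% and 3.33%. This is the control tumour whose Gzmd, Gzme and Gzmg levels lay within the Mif KO range.

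In the 6 control tumours tested for gene levels, Gzmf was highest in line 15, day 10, letter B at 5694 scaled CPM, with the next at 1913. Pfn1 was lowest at 3525, with the next at 4823. mt-Nd4 was highest at 764 with the next at 579, and Rnf213 was highest at 89.8 with the next at 44.7.

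The change in the Gzmc-positive share of NK cells from day 6 to the later days differed between the groups, with a Mif KO change minus control change of -48.1 points (permutation p = 0.00174). The comparison was chosen after the values were seen, so this p is no independent support.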

How the results depend on the processing

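No paired analysis was possible because the groups share no replicate number. That limit concerns replicate numbers alone. The mixed libraries held tumours of both groups from the same day, and pairing by library and day was not tested. In mixed library 1, the NK share was 0.704%, 0.173% and 0.111% for line 19 on days 6, 10 and 16. Line 15 had 0.606%, 0.156% and 0.385% there, and line 18 had 0.593% on day 16. In mixed library 2, line 24 had 0.622% and 1.28% on days 6 and 10, and line 18 had 0.158% and 0.684%. Library was a term in an alternative fit, and not in the main fit or in the fit of the mixed libraries alone. Causes of the differences between settings were not tested. The NK share of assigned cells, Mif KO minus control, was 0.0470 points with at least 2 UMIs of Ncr1 and Klrb1c, 0.182 after thinning, 0.253 within mixed libraries and 0.455 over means of lines, and 0.297 to 0.600 without each line. Among Ptprc-positive cells it was 0.0655 with the stricter gate, 1.13 with no T cell UMI, 1.32 with stricter cell filters, 0.787 after thinning, 0.471 within mixed and 1.72 within single-line libraries and 1.23 over line means, and 0.548 to 1.92 without each line. The day 16 minus day 6 share reversed to 0.0514 within mixed libraries and was -0.621 to -0.182 without each line; of Ptprc-positive cells it was -2.09 within single-line libraries (permutation p = 0.0463) and -2.41 (permutation p = 0.00975) to -0.662 without each line.

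Genes called between Mif KO and control numbered 74 by DESeq2, 104 with no count filter (71 higher and 33 lower), 8 with at least 20 NK cells per tumour, 0 with the stricter gate by edgeR (103 at an unadjusted p under 0.05), 7 within mixed libraries, 5 with a library term (0 higher and 5 lower, against 11 and 13) and 40 with 1 sum per line (28 higher and 12 lower). Without each line they numbered 5 to 26. In settings chosen after seeing the data they numbered 69 with at least 5 NK cells, 6 within mixed libraries with at least 3, and 47 without cells carrying line genes. No called gene reversed, and calls held in 15 of 18 settings for Gzmc, 16 of 18 for Gzmd, 13 of 18 for Ccl5, 11 of 18 for Dgat1, 9 of 18 for Actb and 8 of 18 for Satb1, down to 5 of 18 for Pfn1 and 4 of 18 for B4galnt1. Mif in NK cells reversed to 0.27 within mixed libraries.

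For day 10 against day 6 the counts were 16 by DESeq2, 50 with no filter, 10 with a library term, 0 with 20 cells, the stricter gate, mixed libraries or line in place of group, and 0 to 7 without each line; settings chosen after seeing the data gave 1 with 5 cells, 0 within mixed libraries with 3, 6 without cells over 6000 UMIs and 32 without line-gene cells. For day 16 they were 14 by DESeq2, 35 with no filter, 0 with the stricter gate or mixed libraries, 0 to 4 without each line, and, chosen after seeing the data, 5 with 5 cells, 0 within mixed libraries with 3, 0 without cells over 6000 UMIs and 24 without line-gene cells. NK cells against CD8 T cells gave 374 with no filter (172 higher and 202 lower), 92 with the stricter gate, 109 after thinning, and 118 to 215 without each line, lowest without line 19 and 124 without line 24. The change of Gzmc-positive share was 40.7 to 64.2 points in control tumours without each line and in Mif KO tumours -13.2 to 8.28, reversed without line 19. The number of NK cells per tumour, 1 to 67, limits the precision of all of these.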

Other observations

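The 3 tumours marked WT in the sheet, which no label places in a group, held 29 NK cells. In their cells without Ptprc, Mif stood at 2147 to 2490 CPM, within the range of the control samples (1624 to 2980). NK cells were 0.408% of assigned cells in the tumour of day 6, 0.158% on day 10 and 0.411% on day 16. Gzmc stood at 4123, 6010 and 840 CPM in their NK cells, from 13, 5 and 11 cells, and Ccl5 at 978, 1280 and 1289. The other genes of the granzyme block were sparse there, with Gzmd at 8, 0 and 0 UMIs, Gzme at 5, 0 and 0, Gzmf at 0, 25 and 0, and Gzmg at 0 in each. Of 28 thinned WT NK cells, 42.9% held a Gzmc UMI, 32.1% held Ccl5 and 7.14% held both.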
